A study of Mus musculus with 4 samples.

Results

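Doxorubicin given together with anti-Müllerian hormone (AMH) was compared with AMH alone, across all genes, in single-cell RNA sequencing of prepubertal mouse ovaries. Doxorubicin is an anthracycline chemotherapy drug, and AMH is the granulosa cell hormone that restrains the recruitment and growth of follicles. The doxorubicin+AMH mice received doxorubicin (3 mg/kg) and recombinant human AMH (0.75 mg/kg), and the AMH mice received AMH (0.75 mg/kg) without doxorubicin, so both groups of the pair carry AMH. The other libraries came from mice given doxorubicin (3 mg/kg) alone and from controls given PBS or saline. Dosing began at postnatal day 25 as 2 weekly doses, and ovaries were taken 4 h after the second. Each library pooled 1 ovary from each of 5 mice. With 1 library a group there is no replicate, so no test between conditions exists, and differences between animals, pools and libraries cannot be told apart from the treatment. Cells with at least 1000 UMIs (unique molecular identifiers, each counting 1 captured RNA molecule) and at most 20% mitochondrial UMIs were kept, 6983 in doxorubicin+AMH and 8546 in AMH, which is 15529 of the 30523 kept cells of all 4 libraries.

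Doxorubicin traps topoisomerase II on cut DNA and inserts itself between base pairs, and the broken DNA activates the transcription factor p53. The p53 protein then induces genes that stop the cell cycle (Cdkn1a), restrain p53 itself (Mdm2, Ccng1) or favour apoptosis (Bax, Eda2r, Phlda3). In the ovary, oocytes of the reserve and proliferating granulosa cells of growing follicles are known to be sensitive to the drug, and AMH acts on granulosa cells through SMAD signalling.

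Counts were summed over all kept cells and within marker-gated cell types, and are given as CPM, a gene's share of the summed UMIs scaled to 1e+06 UMIs. The comparison is the log2 ratio of doxorubicin+AMH over AMH with 5 CPM added to each side. A gene was assessed where its mean over the pair was at least 20 CPM and it had at least 50 UMIs in both libraries together, and it was counted as past the fold at a ratio of at least 1.5 in either direction. Ranges written after a value are 95% intervals for counting error only: they do not cover the spread between mice or libraries, which is unknown here. Where values of 4 libraries follow each other without names, their order is doxorubicin+AMH, AMH, doxorubicin and control.

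The pair held 136519795 and 166849432 kept UMIs, with medians of 12705 and 11266.5 UMIs and 3784 and 3476.5 genes per cell, and medians of 4.77% and 4.91% mitochondrial UMIs. Between 7 and 22 kept barcodes were shared by any 2 of the 4 libraries, and 12 by this pair, or 0.172% and 0.140% of its cells. Gates were built on marker genes, so the presence of those markers in a gate is no check of its name, and the oocyte gate held 0 and 9 cells. Likely doublets stayed in the main values and were removed in an alternative.

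Few genes differed past the fold in the summed cells. Of 6795 genes assessed, 11 were higher (0.162%) and 40 lower (0.589%) in doxorubicin+AMH, and the median log2 ratio over all of them was 0.00. In the granulosa gate 4 of 6444 genes were higher (0.0621%) and 16 lower (0.248%). In the theca gate 32 of 6225 were higher (0.514%) and 18 lower (0.289%). In the stroma gate 11 of 6537 were higher (0.168%) and 50 lower (0.765%), and in the smooth muscle and pericyte gate 22 of 6551 were higher (0.336%) and 77 lower (1.18%). The small gates had more genes past the fold: blood endothelial cells, 95 against 132 of them, had 163 of 6949 genes higher (2.35%) and 68 lower (0.979%). The macrophage gate, 95 against 215 cells, had 415 of 6621 higher (6.27%) and 774 lower (11.7%), and the erythroid gate, 87 against 51 cells, had 263 of 1583 higher (16.6%) and 172 lower (10.9%). Counting error is larger in gates with few cells, so these shares are not measures of how strongly a cell type responded.

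The p53 targets that passed the filter had small ratios in most gates. Of 38 targets in 3 lists (arrest and feedback, death, repair and metabolism), 12 passed the filter in all cells, 0 of them past the fold against 0.162% of all genes, with a median log2 ratio of 0.07, or 0.16 when both libraries were given the same mean mix of gates. The median was 0.06 in the granulosa gate, 0.11 in theca, 0.02 in stroma, 0.03 in smooth muscle and pericyte and 0.11 in blood endothelial cells, beside medians of all genes between 0.01 and 0.04 in those gates. In the macrophage gate it was 0.46, with 14 of 16 targets above 0 and 6 past the fold, where 6.27% of all genes were. The same lists in doxorubicin over control had medians of 0.50 in all cells, 0.43 in stroma and 0.72 in macrophages. Whether the pair of ratios differs was not tested, since each rests on 1 library a side.

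Cdkn1a, the cyclin-dependent kinase inhibitor that p53 induces, is a widely used readout of p53 activity. It stood at 48.4 CPM in doxorubicin+AMH, 31.8 CPM in AMH, 142 CPM in doxorubicin and 31.8 CPM in control over all cells. Doxorubicin+AMH was above both libraries without doxorubicin and far below doxorubicin alone. Its log2 ratio was 0.53 (0.49 to 0.58), beside 2.00 (1.96 to 2.03) for doxorubicin over control. The gene is on the forward strand of chromosome 17 and has more than 1 annotated start. The 150 bases before the upstream start are shown because they hold a pair of core motifs of the element that p53 recognises (RefSeq, GRCm38.p6, chr17:29090829-29090978, forward strand, capitals mark ACATGT, 4 bases of any kind, and ACATGT again).
Cdkn1a: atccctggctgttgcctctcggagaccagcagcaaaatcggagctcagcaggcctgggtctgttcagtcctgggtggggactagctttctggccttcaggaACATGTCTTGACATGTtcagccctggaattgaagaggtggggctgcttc
This pair of core motifs, which reads the same on both strands, was found in 2 of 32851 windows of the same length before annotated starts (0.00609%), and not in the 150 bases before the other Cdkn1a start (chr17:29093619-29093768). The match describes the letters and is not evidence of binding in these cells.

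**Figure D1:**
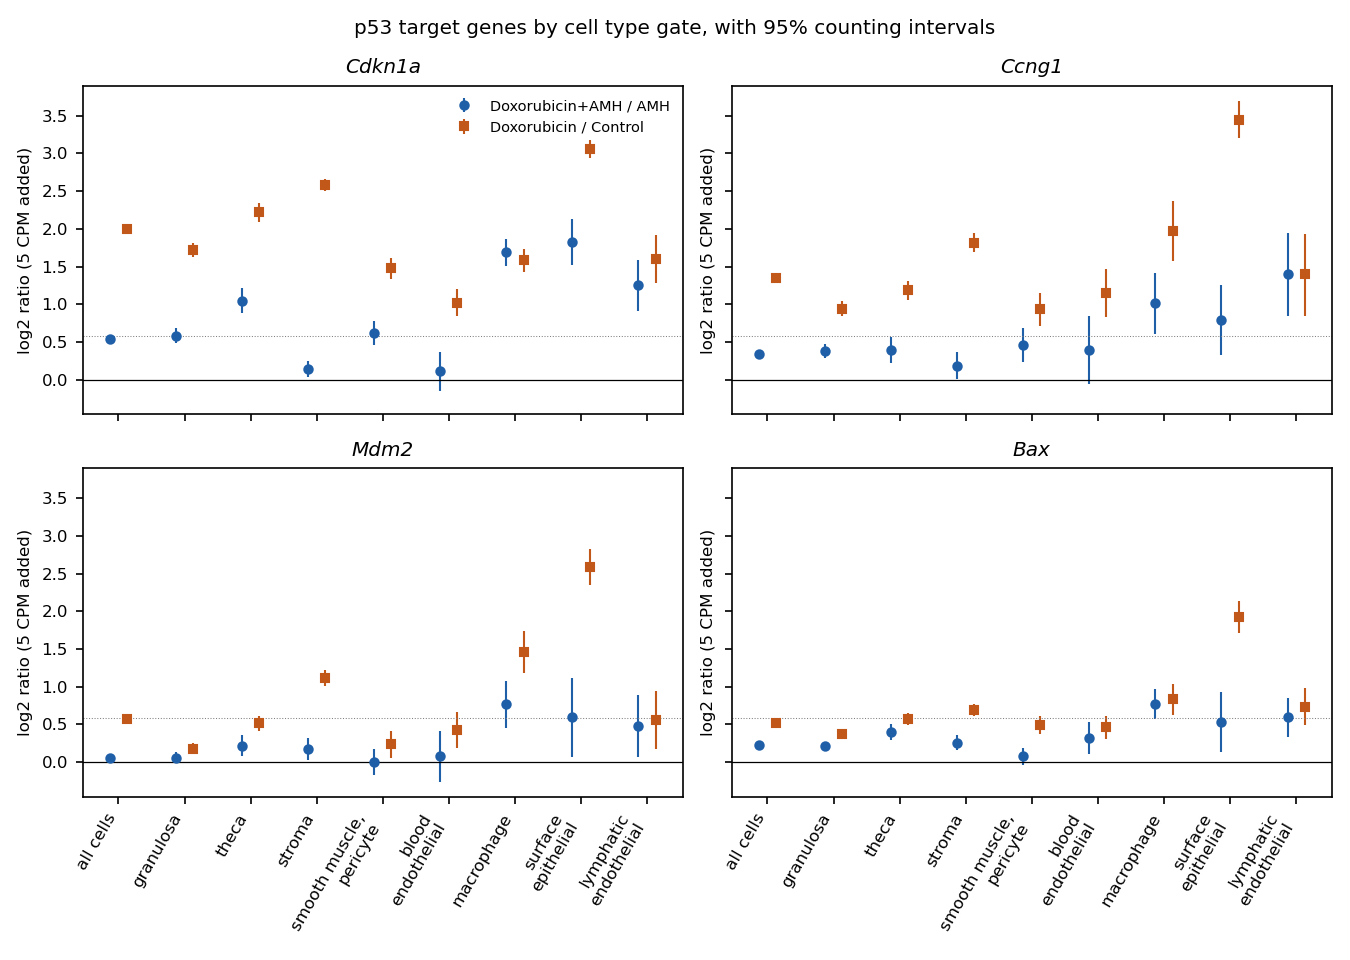
Log2 ratios (5 CPM added) of 4 p53 targets in all cells and in 8 gates, with circles for doxorubicin+AMH over AMH and squares for doxorubicin over control, 1 library a group. Bars are 95% counting intervals and the dotted line is a ratio of 1.5. Cdkn1a squares lie above the circles in all cells and stroma, while in macrophages both lie well above 0.

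By gate, Cdkn1a passed the filter in theca with 39.4 CPM in doxorubicin+AMH, 16.4 CPM in AMH, 73.6 CPM in doxorubicin and 11.8 CPM in control. The log2 ratio was 1.05 (0.88 to 1.22), and it passed the filter only through doxorubicin+AMH. It was the only p53 target of that gate counted past the fold, beside 0.514% of all genes, and nothing is read from that count. In the stroma gate the pair was nearly equal, at 63.5 against 57.0 CPM (log2 ratio 0.14, 0.03 to 0.25), while doxorubicin and control stood at 269 against 40.8 CPM. Stromal cells with a UMI of Dpt or Clec3b, markers of connective tissue fibroblasts, carried the high values: they had 105 and 94.6 CPM in the pair but 704 CPM in doxorubicin and 66.1 CPM in control. The remaining stromal cells had 51.0 and 39.4 CPM in the pair and 80.9 and 29.4 CPM in doxorubicin and control. In the granulosa gate Cdkn1a was under the 20 CPM filter in the pair, at 22.8, 13.6, 43.4 and 9.70 CPM over the libraries.

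In the smooth muscle and pericyte gate Cdkn1a stood at 56.7, 35.2, 113 and 37.3 CPM (log2 ratio 0.62, 0.46 to 0.78), and its ratio was 0.39 under a stricter gate. In cells of this gate without a UMI of Pgr, Trdn, Slc22a3 or Mybpc1 it was at 47.2 and 40.6 CPM in the pair, a ratio of 0.20 (0.00 to 0.39). In blood endothelial cells the interval of the ratio spanned 0, at 0.11 (-0.15 to 0.37). The macrophage gate had a wider gap, with 461 CPM in doxorubicin+AMH, 139.6 CPM in AMH, 759 CPM in doxorubicin and 250.2 CPM in control and a log2 ratio of 1.69 (1.51 to 1.87). Granulosa markers summed to 354 CPM in these macrophages in doxorubicin+AMH and 1021 CPM in AMH. In macrophages with UMIs of fewer than 3 granulosa markers, Cdkn1a was at 486 and 217 CPM in the pair, a log2 ratio of 1.15.

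Surface epithelial cells, the layer that covers the ovary, had too few cells for the full comparison (40 against 68) but had a Cdkn1a level in doxorubicin alone above that of every gate described so far. Cdkn1a was at 269 against 72.1 CPM in the pair and at 1265 against 147 CPM in doxorubicin and control. Phlda3, a p53 target that blocks AKT signalling, was at 63.9 against 14.0 CPM there, and at 189 against 6.16 CPM in doxorubicin and control. Lymphatic endothelial cells (45 against 81) had Cdkn1a at 119 against 47.1 CPM and Ccng1 at 37.5 against 10.999 CPM. In both of these gates each of these genes was higher in both doxorubicin libraries than in both libraries without the drug. T and NK lymphocytes (61 against 39) had Cdkn1a at 75.8 against 66.4 CPM and Phlda3 at 17.1 against 21.5 CPM, with intervals of both ratios that spanned 0.

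Because the libraries differ in depth, each cell was thinned to 2000 UMIs before cells with a Cdkn1a UMI were counted. The thinned share over all cells was 7.96% in doxorubicin+AMH and 6.15% in AMH, with 13.4% in doxorubicin and 6.28% in control. Before thinning the pair had 27.5% and 24.5%, and 258 and 334 shallower cells were left out of the thinned shares. In the granulosa gate the thinned share was 4.52% (3.59 to 5.62) against 1.73% (1.19 to 2.43), and in macrophages 43.8% (32.2 to 55.9) against 25.6% (19.4 to 32.6). In stroma it was 9.04% against 8.87%. The unthinned shares were 27.2% and 20.6% in granulosa, 65.3% and 46.0% in macrophages and 25.6% and 24.1% in stroma. Erythroid cells, taken as a background, had a Cdkn1a UMI in 2 of 72 and 0 of 41 thinned cells. Their median depths before thinning were 5991 and 4143 UMIs. The erythroid shares were 2.78% (0.338 to 9.68) and 0% (0 to 8.60). Of the granulosa, stromal and all-cell shares, only the stromal share of AMH lay above the erythroid interval of its own library. With so few erythroid cells these intervals are wide. The gate also held granulosa markers at 1381 and 1857 CPM, so it cannot separate these shares from background.

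Over all cells the other named targets that passed differed by less. Mdm2, the ubiquitin ligase that degrades p53, had a log2 ratio of 0.06 (0.02 to 0.11) over all cells and 0.77 (0.46 to 1.08) in macrophages, where it stood at 105, 59.5, 212 and 73.9 CPM. Ccng1, which lowers p53 activity, was at 23.5, 16.9, 30.9 and 13.7 CPM in the granulosa gate (log2 ratio 0.38) and at 61.6, 28.0, 121 and 27.1 CPM in macrophages (1.01). Both doxorubicin libraries held more Ccng1 than their partner without the drug in these gates. Bax, the pore-forming protein of apoptosis, had ratios of 0.22 in granulosa, 0.40 in theca and 0.26 in stroma. Over all cells Phlda3 was at 27.6, 19.9, 42.3 and 19.5 CPM (0.39) and Eda2r, a death receptor of the tumour necrosis factor family, at 15.3, 8.16, 34.9 and 7.21 CPM (0.62). The mean of Eda2r over the pair did not reach 20 CPM, and Zmat3, an RNA-binding p53 target, was under the filter in all cells and in each of the gates with counts of genes past the fold.

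The drug's direct target was measured too. Top2a, the topoisomerase II of dividing cells, was at 198, 140.3, 144 and 139.9 CPM over all cells, highest in doxorubicin+AMH, with a log2 ratio of 0.48 (0.46 to 0.51). Top2b, the form found in non-dividing cells, was level in the pair at 97.8 against 96.2 CPM. Trp53, which encodes p53, was at 77.8 against 77.8 CPM. H2afx, the histone variant phosphorylated at breaks, had ratios of 0.48 in granulosa and 0.57 in stroma.

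Inducible heat shock genes were lower in doxorubicin+AMH than in AMH in the granulosa, theca, stroma, smooth muscle, blood endothelial and macrophage gates. AMH was the highest of the 4 libraries in each, except for Hsph1 in granulosa cells. Hspa1b, which encodes the stress-induced HSP70 chaperone, stood at 47.5 CPM in doxorubicin+AMH, 129.9 CPM in AMH, 61.4 CPM in doxorubicin and 51.7 CPM in control over all cells. Doxorubicin+AMH, doxorubicin and control lay close together and AMH above them. The log2 ratio was -1.36 (-1.40 to -1.33). Hspa1a, its near-identical neighbour, was at 76.3, 166, 93.1 and 78.5 CPM (-1.07), and Hsph1, the HSP110 partner chaperone, at 42.2, 73.2, 53.8 and 50.6 CPM (-0.73).

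The starts of these genes are shown because heat shock factor recognises inverted GAA units, and because the first pair is nearly identical there. Each line holds the 150 bases before the start (RefSeq, GRCm38.p6, all on the reverse strand), with matches to GAANNTTC or TTCNNGAA in capitals. Hspa1a is chr17:34972157-34972306, Hspa1b is chr17:34959239-34959388 and Hsph1 is chr5:149636337-149636486.
Hspa1a: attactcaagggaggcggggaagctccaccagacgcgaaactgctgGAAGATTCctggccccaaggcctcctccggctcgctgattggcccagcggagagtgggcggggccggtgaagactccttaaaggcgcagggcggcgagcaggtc
Hspa1b: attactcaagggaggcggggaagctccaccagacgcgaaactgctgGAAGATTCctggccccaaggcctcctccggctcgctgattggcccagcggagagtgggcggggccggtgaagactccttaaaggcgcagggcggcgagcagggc
Hsph1: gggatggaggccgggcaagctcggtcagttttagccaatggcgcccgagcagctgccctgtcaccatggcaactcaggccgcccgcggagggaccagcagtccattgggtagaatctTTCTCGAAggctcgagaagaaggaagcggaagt
The Hspa1a and Hspa1b windows differ at 1 of 150 bases. Such a match occurs in 7.73% of all 32851 windows, so its presence alone is common.

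**Figure D2:**
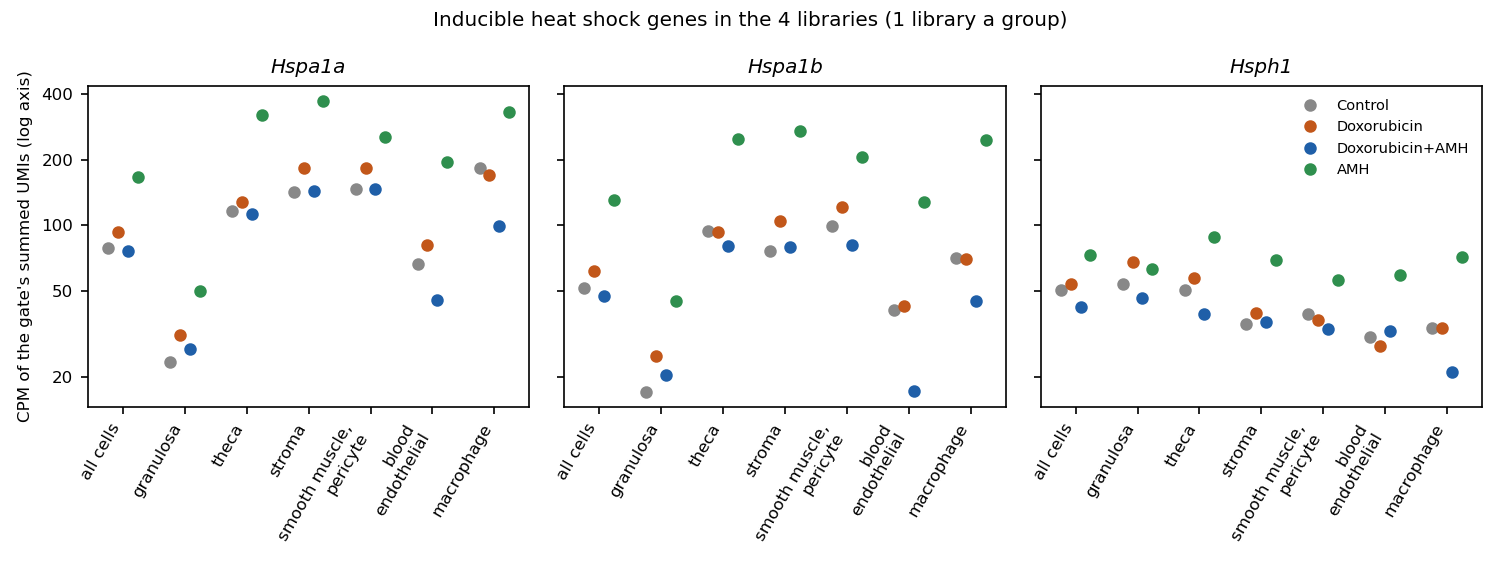
CPM of Hspa1a, Hspa1b and Hsph1 in all cells and 6 gates, on a log axis, with 1 point per library. The AMH points lie above the other 3 libraries in all panels and gates except Hsph1 in granulosa, where doxorubicin is the highest.

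For Hspa1b the stroma gate had 79.3, 270.3, 105 and 76.1 CPM (log2 ratio -1.71, -1.79 to -1.63), theca 80.2, 248, 93.6 and 93.7 CPM (-1.57) and granulosa 20.6, 44.7, 25.0 and 17.1 CPM (-0.96). Smooth muscle and pericyte had a ratio of -1.30, blood endothelial cells -2.57 and macrophages -2.33. The 61 and 39 gated T and NK lymphocytes had the same direction, at 17.1 against 211 CPM, with 23.2 and 19.5 CPM in doxorubicin and control. After thinning, 10.7% (10.0 to 11.5) of all doxorubicin+AMH cells and 22.6% (21.7 to 23.5) of AMH cells had an Hspa1b UMI, beside 12.3% in doxorubicin and 11.1% in control. The unthinned shares were 38.7% and 55.1%. Thinned erythroid cells, 72 and 41 of them, had shares of 6.94% (2.29 to 15.5) and 9.76% (2.72 to 23.1). Neither all-cell share lay above the interval of its own library, but intervals from so few cells are wide.

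The median of the chaperone list over all cells lay near 0. Of 21 genes for chaperones and the unfolded protein response, 18 passed in all cells, 3 were lower past the fold against 0.589% of all genes, and the median was 0.04. The 3 were Hspa1a, Hspa1b and Hsph1. Hsp90aa1, the stress-induced HSP90, had ratios of -0.50 in theca, -0.47 in stroma and -0.11 in granulosa. Theca cells also had less Slc5a3, the osmotically regulated inositol transporter, at 18.6, 40.9, 34.7 and 27.6 CPM. Wdr95, the neighbour of Hsph1 on chromosome 5, was at 12.2, 32.8, 17.8 and 13.7 CPM in stroma, again with AMH the high library. Cells were released from tissue at 37 °C with enzymes, and the part of that handling in these genes was not tested.

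Genes of the G2 and M phase had ratios above 0 in granulosa cells, none of them past the fold. In the granulosa gate all 20 of 20 genes of the G2 and M phase list lay above 0, between 0.20 and 0.53, with a median of 0.34 beside -0.01 in doxorubicin over control. The share of all genes higher past the fold was 0.0621%. S phase genes were also above 0 in 16 of 16 cases, with a median of 0.18. The share of granulosa cells with at least 3 UMIs of the G2 and M list after thinning was 37.7% (35.4 to 40.1) against 33.2% (31.0 to 35.4), with 25.3% in doxorubicin and 27.6% in control. Both AMH-treated libraries thus had the larger shares.

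Birc5, the survivin gene of the chromosomal passenger complex, was at 125 CPM in doxorubicin+AMH, 85.0 CPM in AMH, 80.8 CPM in doxorubicin and 81.3 CPM in control in granulosa cells (log2 ratio 0.53, 0.48 to 0.58). Hmmr, a spindle and hyaluronan-binding protein, was at 58.5, 37.9, 40.5 and 41.6 CPM (0.56, 0.49 to 0.64). In both, doxorubicin+AMH was high and the other 3 libraries were close together. The replication-dependent linker histone Hist1h1b followed, at 328, 175, 222 and 226 CPM in granulosa (0.89, 0.85 to 0.92) and 195, 99.6, 137 and 129 CPM over all cells. Hist1h1e, another linker histone, was at 62.3, 36.8, 47.1 and 45.4 CPM, and its annotation overlaps Hist1h2be, so its counts are uncertain. Hist1h2ap went the other way (-0.61), but a copy with an identical end, Hist1h2ao, makes its counts uncertain.

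In stroma 9 genes of the same list passed the filter, with a median of 0.49 and 3 past the fold, where 0.168% of all genes were. Birc5, Cenpe, Ccnb2 and Nusap1 passed with under 20 CPM in AMH, that is, through the library where they were high, so this count and median are descriptions of the genes that passed and not of the list. The median was 0.22 under the stricter gate and 0.21 when each cell weighed the same. Ube2c, the ubiquitin-conjugating enzyme that starts mitotic exit, stood at 57.8 CPM in doxorubicin+AMH, 27.0 CPM in AMH, 44.8 CPM in doxorubicin and 46.6 CPM in control (log2 ratio 0.97, 0.84 to 1.11). Cenpf, a kinetochore protein, was at 43.0, 24.6, 37.2 and 47.1 CPM (0.70, 0.56 to 0.84) and Cenpa, the centromeric histone, at 38.5, 21.5, 32.0 and 32.1 CPM (0.71). In these genes AMH was the lowest of the 4 libraries. The thinned share of stromal cells with at least 3 UMIs of the list was 4.36% against 3.83%, which is the level of erythroid cells, at 4.17% (0.868 to 11.7) and 4.88% (0.596 to 16.5). The median of the genes that passed, some again only through doxorubicin+AMH, was 0.44 in theca over 6 genes, but 0.04 under the stricter gate, and 0.82 in macrophages, with 6 of 9 higher past the fold, where 6.27% of all genes were. In macrophages the thinned share was 20.5% (12.0 to 31.6) against 7.78% (4.32 to 12.7).

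**Figure D3:**
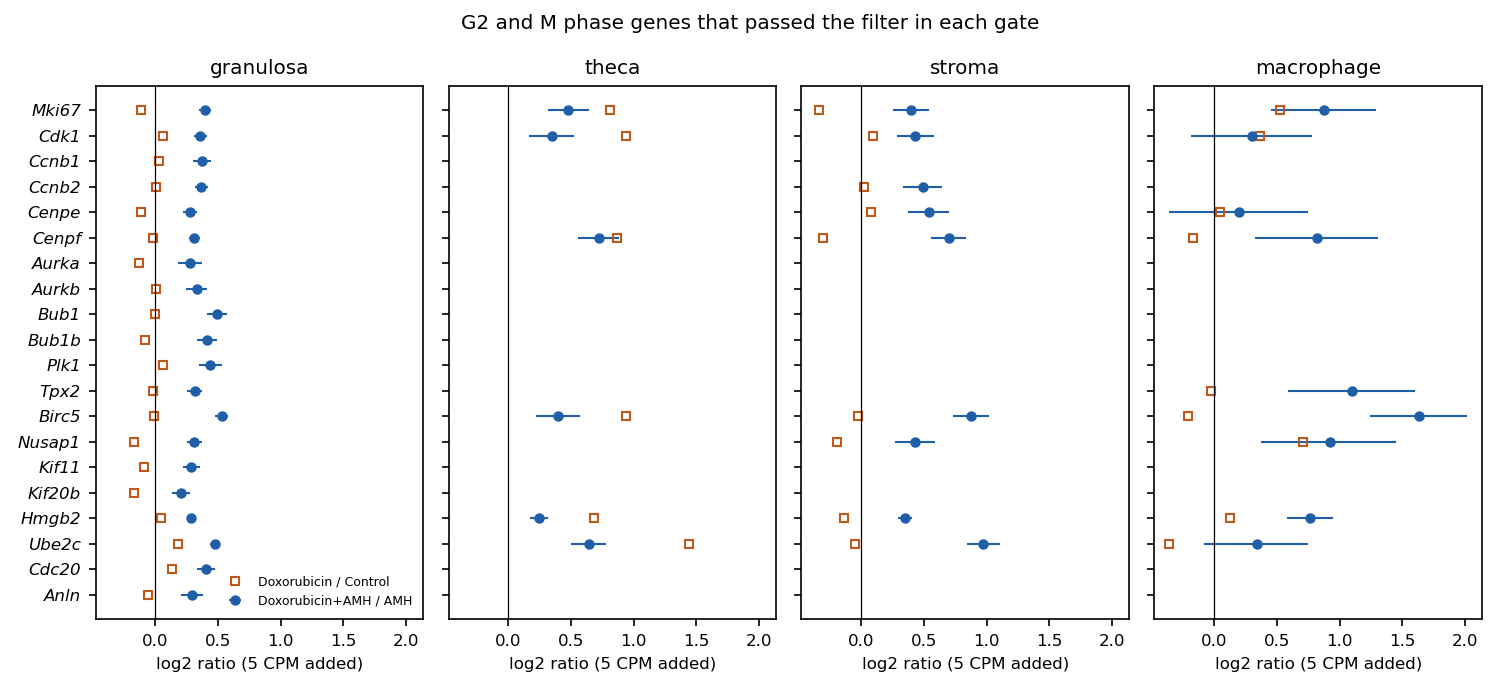
Log2 ratios (5 CPM added) of the G2 and M phase genes that passed the filter in 4 gates; circles are doxorubicin+AMH over AMH with 95% counting intervals, open squares are doxorubicin over control, 1 library a group. All 20 circles lie right of 0 in granulosa, where the squares scatter around 0.

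Promoters of mitotic genes often carry CCAAT boxes, bound by NF-Y, and a cell cycle homology region with the core TTTGAA. Windows of 3 genes named above are shown to compare these letters (RefSeq, GRCm38.p6, 150 bases before the start). Ube2c is chr2:164769779-164769928 on the forward strand, Cenpf chr1:189688087-189688236 and Hmmr chr11:40733438-40733587, both on the reverse strand. Capitals mark CCAAT or its complement ATTGG, and TTTGAA or its complement TTCAAA.
Ube2c: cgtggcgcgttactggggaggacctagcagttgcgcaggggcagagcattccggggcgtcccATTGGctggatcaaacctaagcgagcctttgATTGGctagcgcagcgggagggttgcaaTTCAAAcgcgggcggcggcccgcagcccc
Cenpf: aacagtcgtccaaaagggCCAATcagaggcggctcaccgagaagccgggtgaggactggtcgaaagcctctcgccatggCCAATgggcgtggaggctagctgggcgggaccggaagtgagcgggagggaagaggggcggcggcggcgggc
Hmmr: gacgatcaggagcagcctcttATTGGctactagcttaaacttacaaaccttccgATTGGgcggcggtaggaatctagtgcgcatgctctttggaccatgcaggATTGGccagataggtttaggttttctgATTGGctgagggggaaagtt
The Ube2c window held 2 CCAAT boxes and 1 homology core, Cenpf held 2 CCAAT boxes, and Hmmr held 4. A CCAAT box occurs in 24.5% and the homology core in 9.07% of all windows, and Birc5 had neither.

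Granulosa cells, which nourish the oocyte and make AMH, were 1726 and 1880 of the kept cells. Beside the genes above, Phex, an endopeptidase best known from bone, was at 31.6, 17.6, 20.4 and 26.8 CPM (log2 ratio 0.69, 0.60 to 0.79), lowest in AMH. Phpt1, a protein histidine phosphatase whose annotation overlaps Mamdc4, was at 43.3, 26.2, 39.2 and 36.0 CPM. Rnaset2a, a lysosomal ribonuclease with the near-copy Rnaset2b, was at 26.0, 16.2, 30.5 and 23.0 CPM. Endogenous mouse Amh was at 81.9 CPM in doxorubicin+AMH, 54.4 CPM in AMH, 241 CPM in doxorubicin and 159 CPM in control. Both libraries of AMH-treated mice were below those without AMH, and within the pair doxorubicin+AMH was the higher (log2 ratio 0.55, 0.49 to 0.61, 0.34 when each cell weighed the same).

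Of the 12 genes on the granulosa function list, 8 were above 0 with a median of 0.09, and 1 was lower past the fold where 0.248% of all genes were. Nppc, the C-type natriuretic peptide that holds oocytes in meiotic arrest, was at 322, 253, 109.9 and 86.8 CPM (0.34), higher in both AMH libraries. Inhbb, an inhibin and activin subunit, was at 373, 306, 261 and 203 CPM (0.28), and Fst, which binds activin, at 1045, 870.1, 669 and 711 CPM (0.26). In Inhbb the 2 AMH libraries were the highest, and doxorubicin+AMH highest of all. Bmp2, a ligand of SMAD signalling, was at 39.6, 60.3, 34.4 and 57.6 CPM (-0.55, -0.62 to -0.48) and was lower in each doxorubicin library than in its partner. Igfbp5, which binds insulin-like growth factors and is known from atretic follicles, was the 1 gene past the fold, at 26.9, 47.1, 72.9 and 77.8 CPM (-0.71, -0.79 to -0.63).

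The lowest granulosa genes included long neuronal adhesion genes and a gene of uncertain mapping. Pcdh9, a protocadherin, was at 67.7 CPM in doxorubicin+AMH, 139.6 CPM in AMH, 129 CPM in doxorubicin and 215 CPM in control (log2 ratio -0.99, -1.04 to -0.94), lower in each doxorubicin library than in its partner. Ctnna2, a cadherin-linked catenin, was at 288, 463, 169 and 249.8 CPM (-0.67). Tmsb4x, the actin monomer binder thymosin beta 4, was at 149, 268, 223 and 246 CPM (-0.83). In Tmsb4x the AMH library was the highest of the 4. The transcript end of Gm10076 (472, 814, 347 and 443 CPM in granulosa) matches that of Rpl41 at 99.478% of 383 bases, so how its reads were assigned is uncertain.

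Theca cells, the androgen-making layer around follicles, were 565 and 658 of the kept cells. The sum of their own gate markers was 7581 and 6797 CPM in the pair but 16590 and 17269 CPM in doxorubicin and control, so theca gates of the AMH-treated libraries were marker-poor in both. Isg15, a ubiquitin-like interferon-induced protein, was at 30.0, 13.5, 25.0 and 23.9 CPM (log2 ratio 0.92, 0.74 to 1.10), Irgm2 at 73.7, 37.2, 58.4 and 65.3 CPM (0.90) and Irgm1 at 49.4, 26.2, 32.9 and 32.0 CPM (0.80), the last pair being immunity-related GTPases. In these 3 genes AMH was the lowest library. Of the interferon list, 6 of 6 members that passed were above 0, with a median of 0.22 and 1 past the fold, where 0.514% of all genes were. That member was Isg15, which passed the filter only through doxorubicin+AMH, so nothing is read from the count.

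Cholesterol genes of theca cells were mostly above 0. Of 16 listed, 12 passed, 10 were above 0 and 3 were higher past the fold, where 0.514% of all genes were, with a median of 0.20. Cyp51, which demethylates lanosterol, was at 86.9 CPM in doxorubicin+AMH, 54.4 CPM in AMH, 189 CPM in doxorubicin and 191 CPM in control (0.63, 0.52 to 0.74). Idi1, an isoprenoid isomerase, was at 70.1, 44.9, 169 and 154 CPM (0.59, 0.47 to 0.71). In both genes the AMH-treated libraries were below the other libraries, with AMH lowest. Star, which brings cholesterol into mitochondria for steroid synthesis, was at 379.7, 335, 306 and 413 CPM (0.18). Cyp17a1, the androgen-forming enzyme and a gate marker, was at 43.1, 19.1, 284 and 323 CPM over all cells (0.99, 0.94 to 1.05), again low in both AMH-treated libraries.

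Col25a1, a transmembrane collagen, had the highest theca ratio at 33.7, 13.6, 21.4 and 21.9 CPM (1.06, 0.88 to 1.23), which was 0.66 when each cell weighed the same. Rgs6, a brake on G protein signalling, was at 136, 80.1, 38.2 and 82.4 CPM (0.73), and Ntrk2, the BDNF receptor, at 28.7, 14.6, 5.59 and 11.3 CPM (0.78). Pde10a, which degrades cyclic AMP and GMP, was at 1249, 809.7, 321 and 764 CPM (0.62). Rgs6 and Pde10a were lowest in doxorubicin alone. Of the lower genes, Cnmd, an angiogenesis inhibitor of cartilage, was at 13.5, 33.5, 14.0 and 9.66 CPM (-1.06, -1.24 to -0.88), and Ints6, an Integrator subunit, at 146, 252, 188 and 165 CPM (-0.77).

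Stromal cells were 1865 and 1921 of the kept cells. Beside the cell cycle genes, Asb4, an E3 ligase adaptor, was at 38.1, 19.8, 37.3 and 49.1 CPM (log2 ratio 0.80, 0.65 to 0.95), and Iigp1, an interferon-inducible GTPase, at 70.2, 41.1, 64.1 and 69.2 CPM (0.70). Asb4 and Iigp1 were lowest in AMH, as were the interferon genes in theca. Of the interferon list, 6 of 7 stromal members that passed were above 0, with a median of 0.19. Gm42047 at 26.6, 13.9, 66.9 and 19.4 CPM and Gm12840 at 71.8, 41.9, 98.5 and 91.5 CPM have near-copies and are uncertain.

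Matrix genes of the stroma were mostly below 0. Of 16 that passed, 12 were below 0 and 1 was lower past the fold, where 0.765% of all genes were, with a median of -0.14. That gene was Eln, elastin, at 53.8 CPM in doxorubicin+AMH, 98.4 CPM in AMH, 95.5 CPM in doxorubicin and 125 CPM in control (-0.82, -0.92 to -0.72). Col1a1, the main fibrillar collagen chain, was at 1131, 1493, 1732 and 1676 CPM (-0.40) and Col6a3 at 214, 276, 284 and 319 CPM (-0.36). Doxorubicin+AMH was the lowest of the 4 libraries in Eln, Col1a1 and Col6a3. Col4a1, a basement membrane collagen, was the other way at 603 against 514 CPM (0.23). The gate's own markers summed to 6347 against 7602 CPM in the pair, and smooth muscle markers to 1088 against 975 CPM. Their part in the matrix ratios was not tested.

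Several of the lowest stromal genes were at lower levels outside the cells with a UMI of Dpt or Clec3b, which were 21.1% (19.2 to 23.0) of the stroma gate in doxorubicin+AMH and 26.5% (24.6 to 28.6) in AMH. Igfbp3, which binds insulin-like growth factors, was at 40.8, 103, 51.2 and 62.6 CPM (-1.23, -1.34 to -1.13). Sntg1, a syntrophin, was at 10.7, 38.3, 28.0 and 28.8 CPM (-1.46, -1.62 to -1.30), Adh1, an alcohol dehydrogenase, at 8.97, 33.0, 23.5 and 32.6 CPM (-1.44), Pi15, a secreted peptidase inhibitor, at 19.97, 51.9, 52.7 and 51.5 CPM (-1.19), and Lsamp, an adhesion protein, at 63.1, 149, 70.4 and 118 CPM (-1.17). In these 5 genes doxorubicin+AMH was the lowest library. Without the Dpt or Clec3b cells, 15 stromal genes were lower past the fold in place of 50, and Sntg1 (2.34 against 2.39 CPM), Igfbp3 (3.92 against 4.01 CPM) and Adh1 (0.632 against 2.47 CPM) were too low there for a ratio. Pi15 was at 13.5 against 18.1 CPM without those cells, and Lsamp, still past the fold, at 19.9 against 34.0 CPM (-0.65, -0.82 to -0.47). Within the Dpt or Clec3b cells the ratios were -1.46 for Sntg1, -1.31 for Adh1, -0.92 for Igfbp3, -0.92 for Lsamp and -1.48 for Pi15. Gsn, the actin-severing gelsolin, was at 1432 against 2803 CPM in them.

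Smooth muscle cells and pericytes, 680 and 803 cells, held genes that were split by doxorubicin in both pairs of libraries. Pgr, the progesterone receptor, stood at 18.5 CPM in doxorubicin+AMH, 133 CPM in AMH, 15.4 CPM in doxorubicin and 99.0 CPM in control (log2 ratio -2.56, -2.72 to -2.39). Both libraries with doxorubicin were low and both without it high, and doxorubicin over control gave -2.35. Esr1, the oestrogen receptor, was at 71.8, 269, 53.4 and 247 CPM (-1.84), and Trdn, triadin of the calcium release complex, at 5.25, 52.8, 7.81 and 45.3 CPM (-2.49). Slc22a3, an organic cation transporter, was at 3.15, 38.8, 3.31 and 37.4 CPM (-2.42), and Nlgn1, a neuroligin, at 38.6, 202, 50.4 and 185 CPM (-2.25). In all 5 genes both doxorubicin libraries were below both libraries without it.

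Cells with a UMI of Pgr, Trdn, Slc22a3 or Mybpc1 were a subset of the gate. Cells without a UMI of Pgr, Trdn, Slc22a3 or Mybpc1 made up 85.0% of the gate in doxorubicin+AMH and 84.4% in doxorubicin, but 64.6% in AMH and 66.0% in control. Within them 11 genes were higher and 18 lower past the fold, in place of 22 and 77. Esr1 was at 39.6 against 48.3 CPM there (log2 ratio -0.26) and Nlgn1 at 28.2 against 32.6 CPM (-0.18). Fewer cells of the subset and less RNA per cell cannot be told apart in the summed counts. The oviduct-type epithelial cells described at the end were also fewer in both doxorubicin libraries, and whether the muscle subset came with attached oviduct was not tested.

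**Figure D4:**
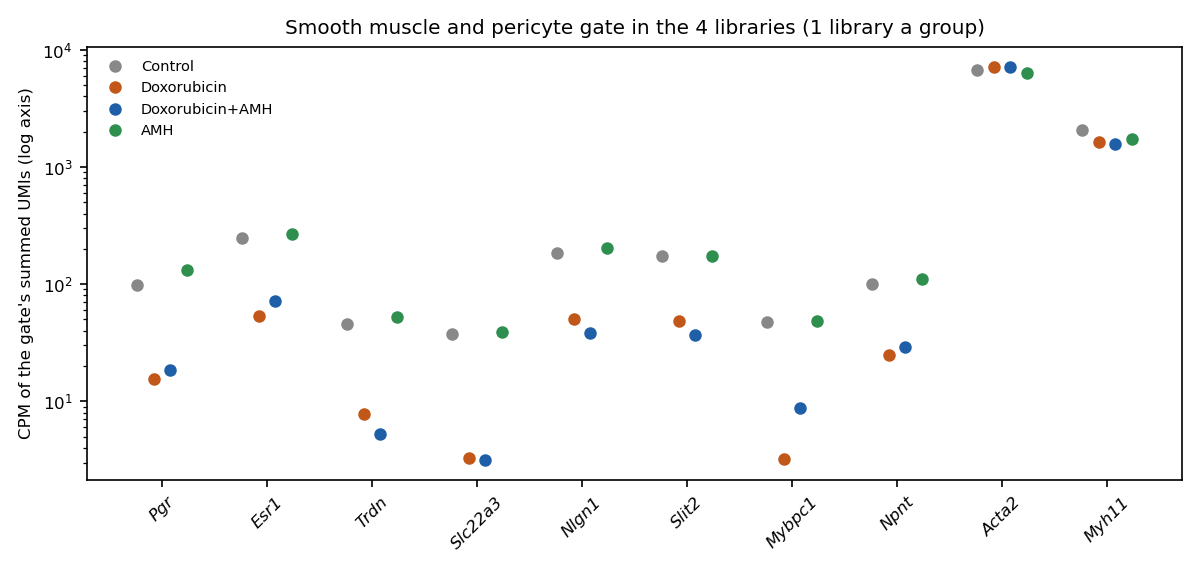
CPM of 10 genes in the smooth muscle and pericyte gate, on a log axis, with 1 point per library. Pgr, Esr1, Trdn, Slc22a3 and Nlgn1 have the AMH and control points above both doxorubicin points, while the points of the contractile genes Acta2 and Myh11 lie close together.

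The higher genes of that gate were fewer. Nupr1, a stress-induced chromatin protein, was at 299, 154, 274 and 174 CPM (log2 ratio 0.94, 0.86 to 1.02), higher in each doxorubicin library than in its partner. Pcp4, a calmodulin regulator whose annotation overlaps Igsf5, was at 78.9, 30.9, 3.90 and 23.5 CPM (1.22, 1.07 to 1.38). Cox4i2, the hypoxia-linked isoform of a cytochrome oxidase subunit, was at 30.6, 14.4, 60.9 and 41.4 CPM (0.87), and its ratio was 0.53 (0.29 to 0.77), no longer past the fold, in cells without a UMI of Pgr, Trdn, Slc22a3 or Mybpc1. Pcp4 was at its lowest in doxorubicin alone, so the pairs with and without AMH pointed opposite ways.

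In blood endothelial cells, immediate early genes were mostly above 0, 15 of 19 with a median of 0.24 and 3 past the fold, where 2.35% of all genes were. Fosb, an AP-1 subunit, was at 823, 481, 603 and 580.3 CPM (0.77, 0.68 to 0.86), and Egr3 at 59.2 against 31.0 CPM (0.84). Klf2, the flow-induced endothelial factor, was at 544, 384, 635 and 566 CPM. Id1, a BMP target, was at 364, 223, 413 and 543 CPM (0.70), with AMH lowest. Ctnna3, an alpha catenin, was at 75.8, 23.9, 65.7 and 43.7 CPM (1.48, 1.17 to 1.80). It had a UMI in 26 doxorubicin+AMH cells, with 27.9% of those UMIs in 1 cell.

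Some endothelial extremes rested on few cells. Fabp4, the fatty acid binding protein of capillaries, was at 26.5, 377, 895 and 408 CPM (-3.60, -3.92 to -3.29), seen in 10 and 17 cells. It had 42.3% of its AMH UMIs in 1 cell, and its ratio was -2.44 once likely doublets were removed. Vcan, versican, was at 46.8 against 15.5 CPM, with 49.6% of its doxorubicin+AMH UMIs in 1 cell and a ratio of 0.12 when each cell weighed the same. C3, a complement factor, was at 2.48 against 39.3 CPM, with 97.5% of its AMH UMIs in 1 cell, and its ratio turned to 0.41 without likely doublets and 0.10 under the stricter gate. Erythroid markers summed to 14 CPM in this gate in doxorubicin+AMH and 228 CPM in AMH. Trmt61b, antisense to a match with Spdya, had a ratio of 1.29 and is uncertain.

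Macrophages were 1.36% (1.10 to 1.66) of kept cells in doxorubicin+AMH and 2.52% (2.19 to 2.87) in AMH, and 1.56% and 2.56% in doxorubicin and control, so each doxorubicin library had the smaller share. The values of this gate come with a difference in markers of other cells. Smooth muscle markers summed to 159 and 797 CPM, stromal markers to 414 and 725 CPM and macrophage markers to 11661 and 8396 CPM in the pair, beside the granulosa sums given above. Their part in the results was not tested. Macrophages with UMIs of fewer than 3 granulosa markers (70 and 159 cells) had 267 genes higher and 456 lower.

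Interferon genes were above 0 in 14 of 14 cases in macrophages, 5 of them higher past the fold, where 6.27% of all genes were, with a median of 0.35. Ifitm3, an interferon-induced membrane protein that restricts viral entry, was at 824 CPM in doxorubicin+AMH, 524 CPM in AMH, 1009.6 CPM in doxorubicin and 1017 CPM in control (0.65, 0.53 to 0.76). Of the cytokine and chemokine list, 10 of 13 were above 0 and 5 higher past the fold, against the same 6.27%, with a median of 0.40. Ccl2, the monocyte attractant, was at 358, 163, 537 and 329.7 CPM (1.11, 0.93 to 1.29), and Ccl4, which attracts several leukocyte types, at 1016, 613, 787 and 861 CPM (0.72). Ccl2 was higher in each doxorubicin library than in its partner.

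The highest ratios of the macrophage gate were those of Chil3, Hist1h1b, Lyz1 and Plac8. Hist1h1b was at 297, 29.0, 163 and 62.2 CPM (log2 ratio 3.15, 2.84 to 3.46), and 3.96 in the macrophages with few granulosa markers. In doxorubicin+AMH, Hist1h1b had a UMI in 23 cells of the gate, with 29.7% of its UMIs in 1 cell. Plac8, found in recently arrived monocytes, was at 306, 52.8, 152 and 100.1 CPM (2.43, 2.17 to 2.68), and its ratio was 1.21 (0.85 to 1.56) in the macrophages with few granulosa markers. Chil3, a chitinase-like protein of monocytes, was at 176, 3.15, 20.3 and 2.34 CPM (4.48), with 64.7% of its UMIs in 1 cell and a ratio of 1.88 once likely doublets were removed. Lyz1, a lysozyme, was at 87.5, 8.75, 8.83 and 72.5 CPM (2.75), with 64.3% in 1 cell and a ratio of 1.56 when each cell weighed the same.

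The lowest macrophage genes were not macrophage genes. Pcdh9 was at 9.89, 253, 37.1 and 119.7 CPM (log2 ratio -4.11, -4.66 to -3.55), Kcnd2, a potassium channel, at 0.761, 93.8, 89.2 and 26.7 CPM (-4.10, -4.30 to -3.40, on 1 UMI in doxorubicin+AMH), and Shroom3, an epithelial shape regulator, at 2.28, 109.9, 66.2 and 47.7 CPM (-3.98, -4.40 to -3.28). A single AMH cell held 31.0% of the Pcdh9 UMIs of that library's gate, and likewise 35.4% for Kcnd2 and 41.7% for Shroom3. In the macrophages with few granulosa markers the ratios were -2.68 for Pcdh9, -1.54 for Kcnd2 and -1.44 for Shroom3. S100a9, a neutrophil calcium-binding protein, was at 0.761 against 84.3 CPM, with 99.6% of its AMH UMIs in 1 cell. BMP and SMAD targets were below 0 in 6 of 6 cases with a median of -1.34, and Id3, an inhibitor of differentiation, was at 106 against 275 CPM. The granulosa function genes that passed here were also below 0, 8 of 8 with a median of -0.48, and the granulosa marker sum of the gate was lower too.

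The erythroid gate, 1.25% (0.999 to 1.535) of kept cells in doxorubicin+AMH and 0.597% (0.445 to 0.784) in AMH, gave extremes that rested on few cells, some of them on 1. Slpi, a secreted protease inhibitor, had 152 UMIs in 1 doxorubicin+AMH cell and none in AMH. C3 had 99.4% of its UMIs in 1 cell, and Sct, secretin, and Gpc3, a glypican, had no UMI in AMH. On the lower side 87.3% of the AMH UMIs of Col6a3 were in 1 cell. Hspa1a was at 25.2 against 148 CPM there (log2 ratio -2.35, -3.09 to -1.60), as in the other gates. Hpgd, which inactivates prostaglandins, and Ank3, an ankyrin, completed the lowest 4.

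Globin genes and oviduct genes were the extremes over all cells. The alpha and beta globin genes were highest, with Hba-a2 at 347, 118, 354 and 245 CPM (log2 ratio 1.51, 1.49 to 1.54) and Hbb-bs at 1508, 546, 1522 and 1035 CPM (1.46), and AMH lowest of the 4. Erythroid cells were 1.25% of doxorubicin+AMH and 0.597% of AMH, and with the mean mix of gates the ratios turned to -0.02 and -0.10. Globin copies share sequence, so their split is uncertain. Tcf21, a transcription factor of stromal progenitors and a stroma gate marker, was at 74.6, 44.3, 86.6 and 67.4 CPM (0.69, 0.65 to 0.73), lowest in AMH. Stromal cells were 26.7% of doxorubicin+AMH and 22.5% of AMH, and a sum over all cells moves with such shares.

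Among the lowest genes over all cells were genes of oviduct epithelium. Ovgp1, oviductal glycoprotein, stood at 18.7 CPM in doxorubicin+AMH, 279 CPM in AMH, 5.63 CPM in doxorubicin and 237 CPM in control (log2 ratio -3.58, -3.63 to -3.54), and A2ml1, a protease inhibitor, at 1.05, 79.2, 0.0494 and 76.9 CPM. Plet1, an epithelial surface protein, was at 4.09, 54.6, 1.88 and 40.1 CPM, Ecrg4, a secreted growth regulator, at 6.86, 97.4, 8.61 and 81.9 CPM and Dnah12, an axonemal dynein of cilia, at 12.2, 36.9, 6.88 and 30.2 CPM. Both libraries with doxorubicin were low and both without it high. Oviduct-type epithelial cells were 0.415% (0.278 to 0.596) of kept cells in doxorubicin+AMH and 2.45% (2.13 to 2.80) in AMH, 1 cell in doxorubicin and 1.76% in control. Krt18, an epithelial keratin, and Mecom, a transcription factor, had ratios of -1.39 and -1.16, -0.48 and -0.37 without the oviduct-type and erythroid gates, but 0.30 and 0.64 when every library was given the mean mix of gates. How much oviduct was left on each dissected ovary is not known, and it cannot be told apart from an effect on these cells.

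Granulosa and stromal cells took larger shares of doxorubicin+AMH than of AMH. Granulosa cells were 24.7% (23.7 to 25.7) and 22.0% (21.1 to 22.9), and stroma 26.7% (25.7 to 27.8) and 22.5% (21.6 to 23.4), of kept cells in the pair. Theca cells were 8.09% and 7.70%, and smooth muscle and pericytes 9.74% and 9.40%. T and NK lymphocytes were 0.874% (0.669 to 1.12) and 0.456% (0.325 to 0.623). Oocytes were gated in 0 of 6983 doxorubicin+AMH cells, which allows a share of up to 0.0430% by the rule of 3 counts of the total (0.0528% by the exact binomial interval), and in 0.105% of AMH cells, so the reserve itself is not described here. Cells outside every gate were 23.9% and 28.8%.

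**Figure D5:**
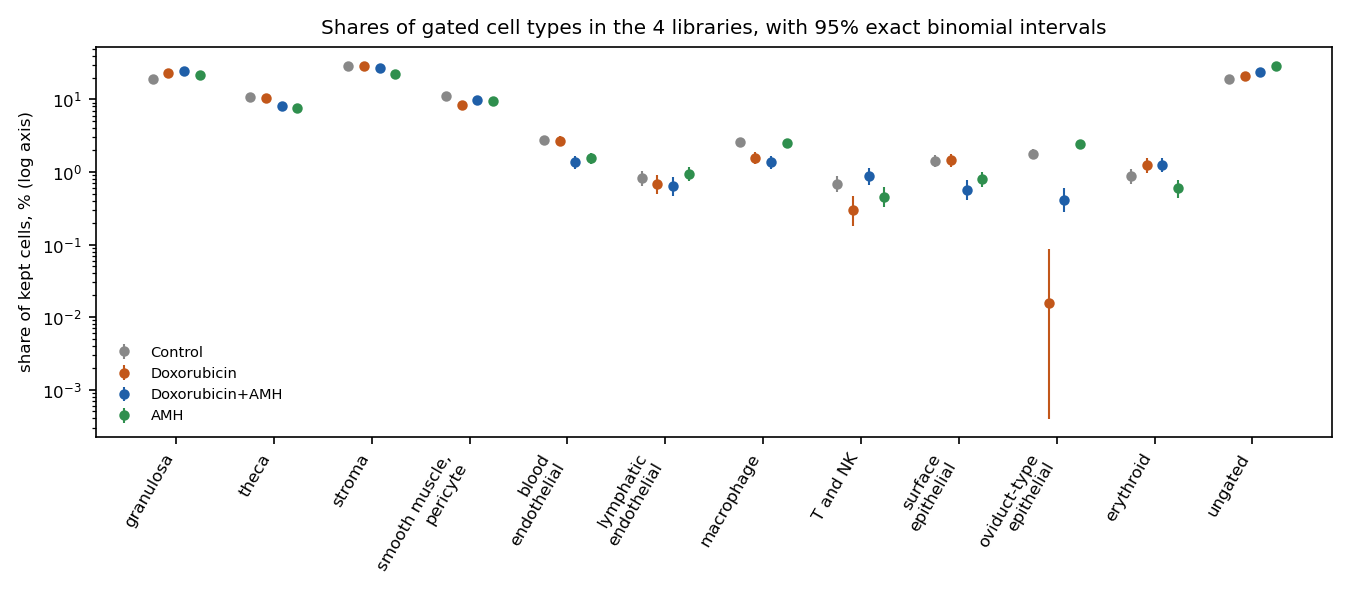
Share of kept cells by gate in the 4 libraries, on a log axis, with 95% exact binomial intervals that cover counting error only. Oviduct-type epithelial cells are at 0.415% in doxorubicin+AMH, 2.45% in AMH, 0.0156% in doxorubicin and 1.76% in control, and macrophages are fewer in both libraries with doxorubicin.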

How the data were processed

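Single-cell RNA was captured with 10x 3′ chemistry. Per the file headers, the matrices came from Cell Ranger 7.0.0, and the submitters' processing notes name mm10, R 4.2.0 and Seurat 4.1.0. The deposited values are UMI counts per gene and cell, raw and not normalized by the authors, for 32285 genes in 4 filtered matrices; the lowest cell held 500 UMIs. Whether intronic reads were counted is not given in the sources used here. In the pair, 369 and 440 cells fell under 1000 UMIs and 466 and 492 over 20% mitochondrial UMIs. Cells were gated into 14 classes by the mean scaled level of marker genes (mean of at least 0.3, a lead of 0.2 over the next class, and UMIs of at least 3 markers); markers of a gate were left out of its own comparison. Counts were summed per library and gate in Python 3.11.15 with numpy 2.4.6, scipy 1.17.1 and pandas 2.3.3. Log2 ratios used 5 CPM added, and intervals are exact binomial or Poisson at 95%. Ratios, fold calls and intervals were tried on simulated Poisson sums of the granulosa and macrophage gates. Gating, thinning, doublet marking and spread between cells were not simulated. With 1 library a group no test between groups was run. Barcodes were counted between libraries, and likely doublets (Scrublet in scanpy 1.11.5, at 0.8% per 1000 cells, marking 437 and 648 cells) were removed only as an alternative. Other alternatives were another total, mean CPM filters of 5 and 50, a pseudocount of 1 CPM, stricter cell filters, a stricter gate, equal weight for each cell and the mean mix of gates. Named genes were the 10 highest and 10 lowest ratios over all cells, 8 and 8 in granulosa, theca and stroma and 4 and 4 in other gates, with members at the ends of 29 gene lists and 9 targets of the drug response; other names were chosen after their values were seen, and some genes that the rule names are not reported here. The members and lists were chosen with earlier results of these data known. Near-copies were searched over the last 500 bases of transcripts (at least 98% identity over 90 bases). Bax, Irgm2, Ovgp1, Rnaset2a, Slc5a3, Slpi and Top2a overlap annotated genes on the same strand, so their counts are less certain. Adh1, Cdkn1a, Cyp51, Eln, Fst, Hist1h2ap, Hspa1a, Idi1, Ints6, Mecom, Nlgn1, Nusap1, Pi15, Plet1, Rgs6, Shroom3, Slc22a3, Top2b, Trmt61b and Ube2c overlap annotated genes on the opposite strand, and whether the counting used strand is not given in the sources used here.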

Additional observations from a re-analysis of the deposited data

Results flagged for a closer look

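Outside the erythroid gate, 4 genes among the highest or lowest ratios of a gate were past the fold in opposite directions with and without AMH while doxorubicin and control averaged 20 CPM or more. Each side rests on 1 library and the difference was not tested. Rgs6, in theca cells, had a log2 ratio of 0.7286 with AMH and -1.02 without. Fabp4, in blood endothelial cells, had -3.599 with AMH and 1.12 without, on 10 and 17 cells with a UMI in the pair and with 42.3% of its AMH UMIs in 1 cell. Lyz1, in macrophages, had 2.75 with AMH and -2.49 without, with 64.3% of its doxorubicin+AMH UMIs in 1 cell. Kcnd2, also in macrophages, had -4.1 with AMH, and was at 89.2 CPM in doxorubicin and 26.7 CPM in control. In macrophages with UMIs of fewer than 3 granulosa markers it was at 0 CPM in doxorubicin and 15.9 CPM in control, so the opposite directions were lost. Pde10a in theca, not among those extremes, was at 0.62 and -1.24. Pcp4 in smooth muscle (1.22 and -1.68), Ntrk2 in theca (0.78 and -0.62) and C3 in blood endothelium (-2.57 and 0.97) also had opposite ratios past the fold, but doxorubicin and control averaged less than that. The C3 ratio turned to 0.41 without likely doublets and to 0.10 under the stricter gate, with 97.5% of its AMH UMIs in 1 cell.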

How the results depend on the processing

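Every value rests on 1 library of 5 pooled ovaries a group, so no spread between libraries is known. No paired analysis was possible because each group has 1 library and no test was run. Over the alternatives, 99 of the counts of genes past the fold stayed within 1.5 times their main value and 51 did not; of the list medians, 1928 stayed, 161 moved and 1 reversed; of single genes, 1374 stayed, 267 moved and 12 reversed; of shares, 83 stayed and 13 moved. The causes were not tested. In gates under 250 cells, several ratios were set by single cells.

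A total without mitochondrial and haemoglobin genes gave 7 higher genes over all cells. With a mean of 5 CPM, lower genes over all cells were 185; higher and lower genes were 50 and 34 in theca, 18 and 104 in stroma, 38 and 162 in smooth muscle, 319 and 172 in blood endothelium, with 1166 lower in macrophages. With 50 CPM they were 7 and 12 over all cells, 1 and 9 in granulosa, 12 and 10 in theca, 3 and 29 in stroma, 12 and 35 in smooth muscle, 55 and 26 in blood endothelium and 230 and 323 in macrophages; the G2 and M median over all cells was 0.48 and the chaperone median in granulosa 0.12. A pseudocount of 1 CPM gave 26 lower genes in granulosa, 29 lower in theca and 18 higher in stroma. Without likely doublets blood endothelium had 302 higher and 163 lower genes, a G2 and M median of 0.76, and C3 reversed to 0.41.

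The stricter gate gave 20 higher genes and a G2 and M median of 0.0354 in theca, 6 higher and 0.22 in stroma, 40 higher and 0.73 in smooth muscle, 238 higher and 509 lower in macrophages, and C3 in blood endothelium reversed to 0.10. With each cell weighing the same, 25 genes were lower over all cells, 9 in granulosa, 30 in stroma (4 higher) and 265 in blood endothelium (389 higher). The G2 and M medians were then 0.26 over all cells, 0.27 in granulosa, 0.21 in stroma and -0.17 in blood endothelium, the chaperone medians -0.0002 over all cells and 0.0062 in granulosa, and the collagen median in macrophages reversed to 0.0536.

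With the mean mix of gates in every library, 14 genes were lower over all cells, the G2 and M median was 0.33 and the p53 median 0.16. Reversed values were -0.0212 for Hba-a2, -0.0327 for Hba-a1, -0.10 for Hbb-bs, -0.18 for Hbb-bt, 0.30 for Krt18 and 0.64 for Mecom.

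The next alternatives were chosen after seeing the data. Stroma without Dpt or Clec3b cells had 15 lower genes, and within them 56 higher, 114 lower and a G2 and M median of 0.65. Smooth muscle without Pgr, Trdn, Slc22a3 or Mybpc1 had 11 higher and 18 lower genes. Macrophages with few granulosa markers had 267 higher and 456 lower. Without the oviduct-type and erythroid gates all cells had 6 higher and 15 lower genes and a chaperone median of 0.0574, and the globins reversed, to -0.82 for Hba-a2, -1.06 for Hba-a1, -1.55 for Hbb-bs and -0.92 for Hbb-bt; the erythroid gate is chosen by such genes, so these describe what is left outside it, for example Hba-a2 at 1.95 against 7.32 CPM.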

Other observations

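Energy and protein synthesis genes of granulosa cells lay slightly to 1 side of 0. Nuclear genes of the respiratory chain were above 0 in 19 of 21 cases with a median of 0.13, and cytosolic ribosomal protein genes in 18 of 22 with a median of 0.10, while the median of all genes was 0.01. Short genes as a whole lay there too: 78.8% of 655 granulosa genes with a span under 5 kb were above 0, with a median of 0.11, and 72.5% of those of 5 to 20 kb. The mitochondrially encoded respiratory chain genes were below 0 in 11 of 13 cases, with a median of -0.05, and in theca in 13 of 13 (-0.09). Collagen and matrix genes that passed in granulosa cells were below 0 in 6 of 6 cases, with a median of -0.21. In this gate stroma markers summed to 120 against 141 CPM and smooth muscle markers to 81.5 against 95.3 CPM in the pair. Theca markers went the other way, at 1167 against 1112 CPM. The part of RNA from other cells in the matrix ratios was not tested.

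Ratios over all cells differed with the genomic span of the gene. Of 699 genes with a span under 5 kb, 72.4% were above 0, with a median log2 ratio of 0.08, and of 545 genes over 200 kb, 25.7%, with a median of -0.09. Doxorubicin over control ran from 0.06 to -0.12 and AMH over control from 0.01 to -0.15 in the same bins. Genes are not independent replicates, the libraries differ in depth and mix of cells, and the part of these in the gradient was not tested.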
